A study of Mus musculus with 6 samples.

Results

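The 42 genes described here encode chaperones of the endoplasmic reticulum (ER), the cytosol and the mitochondria, targets of the transcription factor Atf4, and the sensors and regulators of the unfolded protein, integrated stress and heat shock responses. They were taken by symbol, by a rule that uses no measured value, but the list was chosen with earlier results of these data known. All 42 were found among the 17348 genes listed for the cortex of E13.5 mouse embryos. They fall into 12 ER chaperones, 8 cytosolic chaperones, 2 mitochondrial chaperones, 11 Atf4 targets and 9 sensors and regulators. Counts were high enough to test 40 of them, of 13340 genes tested in all, and Hspa1a and Trib3 were below the filter. RNA sequencing was done on cortical tissue of Ybx1 cKO embryos (Nestin-Cre, Ybx1 fl/fl) and of littermates labelled WT, with 3 libraries of each genotype, to ask which transcripts depend on Ybx1, an RNA-binding protein and reader of the RNA modification m5C. In the study, the name control stands for Ybx1 fl/fl mice without Cre, and how many embryos went into a library is not given in the sources used here. Nestin-Cre is active in neural progenitors and is inherited by the cells they produce, so vessel cells, microglia and meningeal cells in the tissue keep the gene.

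Proteins that fold in the ER are attended by chaperones such as Hspa5 (BiP), and unfolded protein there is sensed by Ern1 (IRE1), Atf6 and Eif2ak3 (PERK), which raise chaperone transcription and slow translation. The integrated stress response is the branch shared with the amino acid sensor Eif2ak4 (GCN2): phosphorylation of eIF2α lowers translation in general while the translation of Atf4 mRNA goes up, and Atf4 then switches on genes of amino acid synthesis and transport. Heat and cytosolic protein damage act through Hsf1, whose targets include the inducible Hsp70 genes. Counts per gene do not show splicing of Xbp1 mRNA, cleavage of Atf6, phosphorylation or translation, so the values below concern transcript levels only.

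The libraries held 15907486 to 16282921 estimated counts, with counts for 15677 to 16296 genes. Ybx1 itself (Entrez 22608) stood at 1021, 528 and 1220.0 CPM (counts scaled to a common library size and composition) in WT replicates 1, 2 and 3 and at 83.1, 117 and 147 CPM in cKO replicates 1, 2 and 3. Its value in the library labelled WT replicate 2 lay between those of the genotypes and so goes partly against that label. The log2 difference of -3.00 ± 0.33 (SE), cKO minus WT, had an adjusted p of 0.128 by edgeR's quasi-likelihood test. The summed level of 12 cortex markers was 5158 to 6017 CPM in WT and 4888 to 6057 CPM in cKO, with none of the 12 at 0 in any library. The library of cKO replicate 3 held 255 CPM of 8 epidermis markers against 1.07 to 1.38 CPM in the other libraries, and 593 CPM of 9 meninges and mesenchyme markers against 35.4 to 58.8 CPM. Of these 9, Col1a1, Col1a2, Col3a1, Lum, Dcn, Twist1 and Prrx1 were highest in that library. Foxc1 and Foxd1 were not, at 1.09 and 0.362 CPM there against 2.51 and 0.691 CPM in WT replicate 1. Markers of ventral forebrain summed to 111 to 169 CPM in WT and 172 to 202 CPM in cKO, with all 10 genes higher on average in cKO, and their part in the results below was not tested. In tissue RNA, fewer cells of a type and less RNA per cell cannot be told apart. The p-values measure the spread between these 6 libraries.

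No difference between the genotypes passed the test for any of these genes. For most of them, as for 78.2% of all genes, the interval kept the difference under 1.5-fold. None of the 40 genes tested passed an adjusted p of 0.05 in edgeR, as was the case for all genes (0% called). DESeq2 also called 0 of the 40, and 4 of all 13340 genes tested. At an unadjusted p of 0.05, edgeR gave 2 genes higher in cKO (Dnajb9 and Dnajb1) and 1 lower (Mthfd2), which is 7.5% of the 40 against 3.57% of all genes tested (1.75% higher and 1.81% lower). With cKO replicate 3 and the library labelled WT replicate 2 left out, Dnajb9 and Mthfd2 were the genes under that unadjusted p (5% against 1.84% of all genes). The genotypes did not overlap for 5 of the 40, against 9.04% of all genes. The median log2 difference, cKO minus WT, was 0.009 over the 40 genes and 0.002 over all genes. Of the 40, 22 were above 0 and 18 below, and of all genes 6774 were above 0 and 6566 below. For 34 of the 40 genes the 95% interval of the difference lay within 1.5-fold in either direction, as it did for 78.2% of all genes, and the other 6 were Hspa1b and the Atf4 targets Chac1, Sesn2, Psat1, Mthfd2 and Slc7a11. For 35 of the 40 (87.5%) the difference between genotype means was smaller than the range of the 3 WT libraries, which held for 84.0% of all genes.

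**Figure D1:**
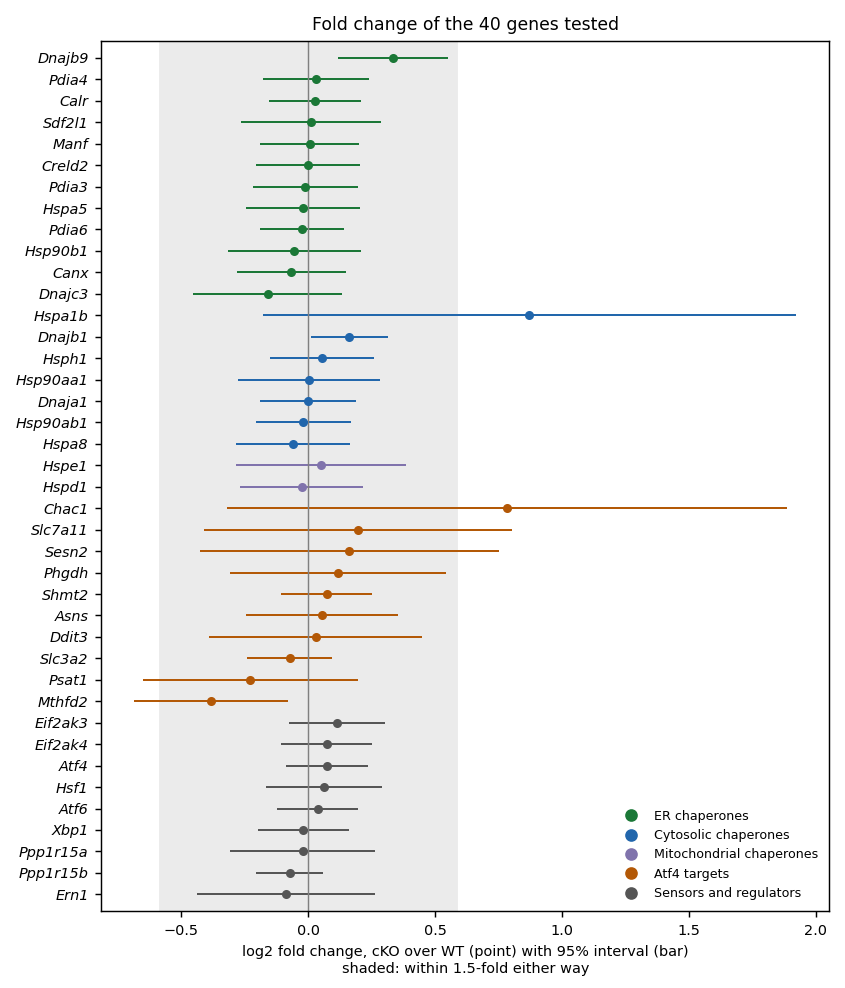
Log2 fold change of the 40 genes tested, cKO over WT, on the x axis, with the gene on the y axis, coloured by subgroup. Points are edgeR estimates from 3 libraries per genotype, bars are 95% intervals and the shaded band is 1.5-fold in either direction. All 12 ER chaperones and all 9 sensors and regulators have bars inside the band, while the bars of Hspa1b and Chac1 reach beyond 1.5 on the log2 scale.

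Promoter sequences are shown for the elements through which these responses are known to act, so that the levels below can be read beside them. Promoter windows of RefSeq (GRCm38.p6), from 250 bases before to 50 bases after the gene start, were found for 35 of the 42 genes. The ER stress element (ERSE), bound by Atf6 together with NF-Y, was searched as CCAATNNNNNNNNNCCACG on both strands, and it occurred in 7 of 11 ER chaperones (Calr, Canx, Creld2, Dnajc3, Hsp90b1, Hspa5 and Pdia6) and in none of the other 24 genes with a window. Of all 27025 genes with a window, 0.137% held it. The capitals below mark the match, which reads CGTGG first where it lies on the other strand, and Hsp90b1 has a match on each strand.
Calr (chr8:84847045-84847123, minus strand): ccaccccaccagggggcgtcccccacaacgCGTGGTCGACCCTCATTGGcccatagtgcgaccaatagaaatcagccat
Hsp90b1, distal (chr10:86705608-86705686, minus strand): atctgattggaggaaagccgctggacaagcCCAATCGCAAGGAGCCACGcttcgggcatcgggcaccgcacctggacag
Hsp90b1, proximal (chr10:86705503-86705581, minus strand): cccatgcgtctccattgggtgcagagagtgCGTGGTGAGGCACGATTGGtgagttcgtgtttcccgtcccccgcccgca
Pdia6 (chr12:17266461-17266539, plus strand): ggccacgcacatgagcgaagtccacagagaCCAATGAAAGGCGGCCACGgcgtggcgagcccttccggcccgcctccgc
Hspa5 (chr2:34771995-34772073, plus strand): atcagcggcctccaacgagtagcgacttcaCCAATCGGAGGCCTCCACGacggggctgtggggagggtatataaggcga
The related element of Xbp1, searched as TGACGTGG, was in none of the 35 genes with a window and in 0.714% of all genes. A match in these windows is a description of the letters and not a measured binding site.

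For 11 of the 12 ER chaperones the genotypes overlapped, and for 1 they did not, beside 9.04% of all genes tested. Calr (calreticulin, Entrez 12317), a lectin that holds newly made glycoproteins, was the most abundant of them, at 689 ± 27.5 TPM (the transcript's share of a library, a scale that allows for length, as the mean and SD of 6 libraries). Calr stood at 498, 562 and 563 CPM in the WT libraries and 560.4, 541 and 551 CPM in the cKO libraries. The cKO values lay inside the WT range, and the log2 difference of 0.026 ± 0.078 (SE) had a 95% interval of -0.15 to 0.21. Hsp90b1 (Grp94, Entrez 22027), the Hsp90 of the ER, gave 481, 625 and 553 CPM in WT and 483, 544 and 569 CPM in cKO, with a log2 difference of -0.055 ± 0.11 (SE). Pdia6 (Entrez 71853), a disulphide isomerase, gave 292, 329 and 312 CPM in WT and 301, 309 and 307 CPM in cKO, so its 3 cKO libraries lay within the WT range. For Hspa5, the chaperone most used as a readout of ER stress, the 6 libraries ran from 296 to 376 CPM with a log2 difference of -0.021 ± 0.10 (SE). Its 95% interval of -0.24 to 0.20 puts the cKO level between 0.844 and 1.15 times WT. The 7 genes with an ERSE had log2 differences from -0.16 (Dnajc3, a cochaperone of Hspa5 that also restrains PERK) to 0.026 (Calr).

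The exception in size was Dnajb9 (ERdj4, Entrez 27362), a cochaperone of Hspa5 that helps to dispose of misfolded protein and to silence IRE1. It stood at 21.7, 21.0 and 22.1 CPM in WT replicates 1, 2 and 3 and at 29.7, 27.0 and 24.9 CPM in cKO replicates 1, 2 and 3. Every cKO library was above every WT library, and the genotype means were 21.6 ± 0.535 (SD, n = 3) CPM and 27.2 ± 2.4 (SD, n = 3) CPM. The log2 difference was 0.33 ± 0.095 (SE), with a 95% interval of 0.12 to 0.55, an unadjusted p of 0.00775 and an adjusted p of 1.0 by edgeR. It stayed between 0.28 and 0.39 when any 1 library was left out, and 5.50% of the 50-base windows of its transcripts recur in a copy, Gm6568. The remaining ER chaperones (Canx, Pdia3, Pdia4, Dnajc3, Sdf2l1, Creld2 and Manf) had log2 differences between -0.16 and 0.031, with overlap between the genotypes in each of the 7. Over the 12 ER chaperones the median difference was -0.0055, and their summed level was 2779 ± 128 TPM in WT and 2776 ± 92.4 TPM in cKO (SD, n = 3 each).

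**Figure D2:**
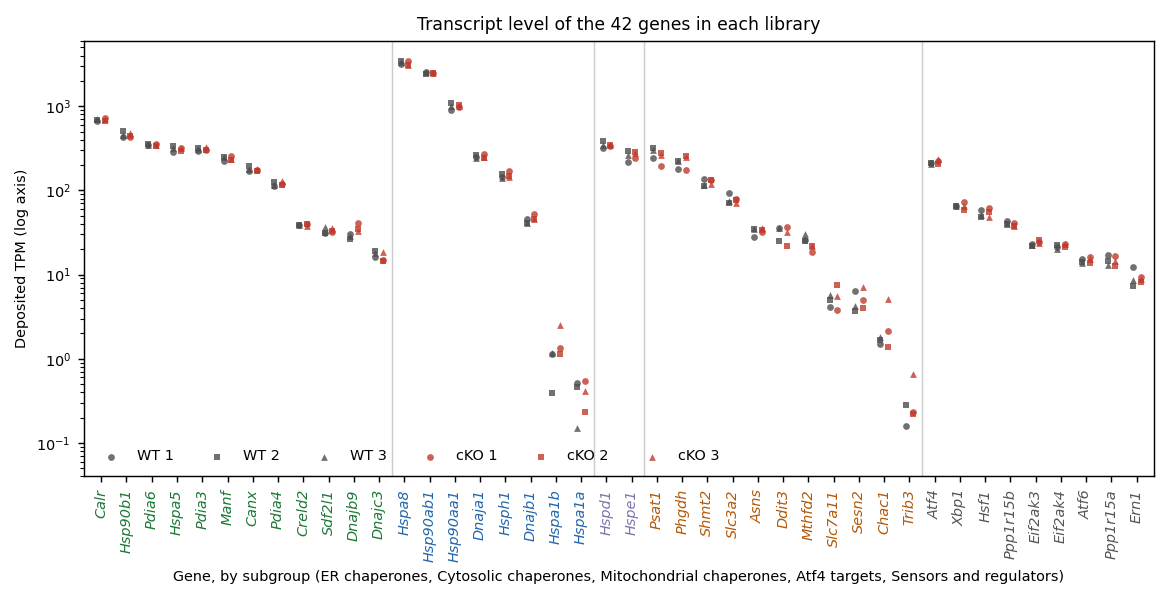
Deposited TPM (y axis, logarithmic) of the 42 genes in each of the 6 libraries, ordered by subgroup and then by mean level. Grey points are WT, red points are cKO, circles, squares and triangles are replicates 1, 2 and 3, and the value of Trib3 in WT replicate 3, which is 0, is not drawn. The points of a gene lie close together over a range of levels from 3257 TPM (Hspa8) to 0.257 TPM (Trib3), and the spread is widest for the lowest genes.

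The cytosolic chaperones were the bulk of the 42 genes' RNA. Together the 42 genes took 1.18% of the TPM of a library, 3257 TPM of it from Hspa8 (Hsc70, Entrez 15481), the constitutive Hsp70 that also strips clathrin from vesicles. Hspa8 stood at 2602, 3128 and 2937 CPM in WT and 2846, 2814 and 2651 CPM in cKO. Its genotypes overlapped, and the log2 difference was -0.061 ± 0.10 (SE). Hsp90ab1 (Entrez 15516), the constitutive Hsp90, was next on the TPM scale and varied least among the cytosolic chaperones, at 2597, 2693 and 2729.6 CPM in WT and 2553, 2759.5 and 2599 CPM in cKO. Its highest library was 1.08 times its lowest, and the log2 difference was -0.019 ± 0.081 (SE). Hsp90aa1 (Entrez 15519), the stress-inducible Hsp90, gave 1038, 1402 and 1245 CPM in WT and 1149.7, 1316 and 1229 CPM in cKO, with a log2 difference of 0.0039 ± 0.12 (SE). The WT libraries of Hsp90aa1 span a wider range than the cKO libraries and enclose them. Near-identical copies in the genome make some of these counts uncertain: 47.5% of 50-base windows of Hsp90aa1 transcripts and 38.6% of those of Hspa8, but 3.44% of those of Hsp90ab1, also occur in another gene's transcripts (GENCODE M21).

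Among the cochaperones, Dnajb1 (Hsp40, Entrez 81489), which delivers clients to Hsp70 and is itself a classic Hsf1 target, did not overlap between genotypes. Its levels were 55.9, 55.1 and 54.9 CPM in WT and 65.0, 61.8 and 58.9 CPM in cKO. All 3 cKO libraries were above all 3 WT libraries, and the log2 difference was 0.16 ± 0.066 (SE) with an unadjusted p of 0.0398 (adjusted p = 1.0, edgeR). That unadjusted p was 0.064 in DESeq2, and it was 0.090, 0.12, 0.076 and 0.090 when the library labelled WT replicate 2, WT replicate 3, cKO replicate 1 or cKO replicate 2 was left out. The nucleotide exchange factor Hsph1 (Hsp110) and the cochaperone Dnaja1 overlapped between genotypes, at log2 differences of 0.054 and -0.0018. The summed level of the 8 cytosolic chaperones was 7277 ± 212 TPM in WT and 7155 ± 206 TPM in cKO (SD, n = 3 each).

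The heat-inducible Hsp70 genes had few counts. Hspa1b (Entrez 15511) stood at 1.32, 0.496 and 1.44 CPM in WT replicates 1, 2 and 3 and 1.56, 1.38 and 3.02 CPM in cKO replicates 1, 2 and 3, which is 8 to 50 counts. Replicate 3 of cKO was the highest, the library labelled WT replicate 2 was the lowest, and the other 4 libraries lay between 1.32 and 1.56 CPM. The log2 difference of 0.87 ± 0.46 (SE) had a 95% interval of -0.18 to 1.92 and an unadjusted p of 0.092 by edgeR, and without cKO replicate 3 it was 0.44. It was 0.53 without the library labelled WT replicate 2 and 0.092 with neither of them. Hspa1a (Entrez 193740), too low to test, ran from 0.188 to 0.624 CPM or 3 to 10 counts, and a library's count of 3 corresponds to 0.181 to 0.188 CPM. Hspa1a and Hspa1b share 60.3% and 62.3% of their 50-base windows with other genes, mainly with each other, so the split between them is uncertain. Immediate early genes, which respond to handling of tissue, summed to 291 to 308 CPM in WT and 276 to 320 CPM in cKO. Most of that sum was Jun (109 to 147 CPM) and Btg2 (105 to 116 CPM). Egr1 ran from 0.186 CPM in the library labelled WT replicate 2 to 1.99 CPM in cKO replicate 3. Fos ran from 0.251 CPM in cKO replicate 2 to 0.624 CPM in cKO replicate 1. The part of handling in these values was not tested. Hsf1 (Entrez 15499) stood at 50.1, 43.3 and 45.3 CPM in WT and 52.3, 49.6 and 42.9 CPM in cKO, with overlap and a log2 difference of 0.062 ± 0.10 (SE).

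Hspd1 (Hsp60, Entrez 15510) and Hspe1 (Hsp10, Entrez 15528), the subunits of the mitochondrial folding chamber, are transcribed away from each other from a shared promoter that holds the heat shock element searched as GAANNTTCNNGAA on both strands. That element was found in 3 of the 35 genes with a window (Hspd1 and Hspe1, through the shared promoter, and Hsph1) and in 0.662% of all genes. The match of Hsph1 lies after the gene start. Hspa1a, Hspa1b and Dnajb1 had a window and no match to these letters. The sequence is shown because Hspd1 and Hspe1 share it, read in the direction of Hspd1, with 1 of 2 overlapping matches in capitals.
Hspd1 and Hspe1 (chr1:55088029-55088101, minus strand): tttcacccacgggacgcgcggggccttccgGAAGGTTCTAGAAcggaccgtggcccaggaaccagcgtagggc
Hspd1 gave 300.0, 389 and 343 CPM in WT and 318, 355 and 340.3 CPM in cKO. Hspe1 gave 48.4, 71.8 and 61.9 CPM in WT and 55.4, 68.7 and 64.6 CPM in cKO. Both genes were lowest in replicate 1 and highest in replicate 2 of each genotype, so the pair varied together between libraries of the same genotype, and the log2 differences between genotypes were -0.025 ± 0.10 (SE) and 0.051 ± 0.15 (SE). Copies elsewhere share 39.7% of the windows of Hspd1 and 18.4% of those of Hspe1.

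The targets of Atf4 were measured less precisely than the chaperones, with a median SE of 0.18 on the log2 scale against 0.092 for the ER chaperones. Of the 10 tested, 5 had a 95% interval within 1.5-fold, against 78.2% of all genes tested. The core of the element bound by Atf4 with C/EBP proteins, searched as TGATGNAA on both strands, was in 4 of the 11 Atf4 targets, which all had a window (Asns, Chac1, Slc7a11 and Trib3), and in 4.51% of all genes. It was in none of the 24 genes with a window in the other subgroups. The 3 stretches upstream of a gene start are shown with the match in capitals, which reads TTGCATCA on the other strand, and in Slc7a11 a further match on the other strand follows in lower case.
Asns (chr6:7693210-7693262, minus strand): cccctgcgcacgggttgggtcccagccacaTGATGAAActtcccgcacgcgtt
Slc7a11 (chr3:50443642-50443709, minus strand): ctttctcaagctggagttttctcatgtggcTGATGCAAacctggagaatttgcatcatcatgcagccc
Chac1 (chr2:119351019-119351086, plus strand): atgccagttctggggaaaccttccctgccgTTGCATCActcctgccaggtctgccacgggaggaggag
Of these genes, Asns (asparagine synthetase) differed by 0.055 on the log2 scale, with a 95% interval of -0.25 to 0.36. Slc7a11 (the cystine transporter) differed by 0.20, with an interval of -0.41 to 0.80, and without cKO replicate 2, its highest library at 31.4 CPM, by -0.10. Chac1 differed by 0.78, with an interval of -0.32 to 1.89, and Trib3 was too low to test. All 3 intervals include 0.

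Serine and one-carbon enzymes were the most abundant Atf4 targets on the TPM scale. Psat1 (Entrez 107272), an aminotransferase of serine synthesis, stood at 207, 296 and 278 CPM in WT replicates 1, 2 and 3 and at 168, 259 and 239 CPM in cKO replicates 1, 2 and 3. Replicate 1 was the lowest of each genotype and the genotypes overlapped, and the log2 difference was -0.23 ± 0.18 (SE) with an unadjusted p of 0.248 by edgeR. The difference ranged from -0.36 (without WT replicate 1) to -0.056 (without cKO replicate 1) when 1 library was left out, and it was -0.13 without the library labelled WT replicate 2. By replicate number, each cKO library of Psat1 was below the WT library. With the number as a block, edgeR gave an unadjusted p of 0.0026 and an adjusted p of 0.481, with 8.17% of all genes under an unadjusted 0.05. The numbers were not treated as pairs. Phgdh (Entrez 236539), the dehydrogenase that opens the same pathway, gave 129, 177 and 173 CPM in WT and 128, 201 and 189.7 CPM in cKO. It too was lowest in replicate 1 of each genotype, but its log2 difference was of the other sign, at 0.12 ± 0.18 (SE), and 47.8% of its windows recur in copies. Shmt2 (Entrez 108037), which passes the one-carbon unit of serine to folate in mitochondria, gave 123, 112 and 112 CPM in WT and 122, 131 and 113 CPM in cKO, a log2 difference of 0.073 ± 0.078 (SE).

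Mthfd2 (Entrez 17768), the mitochondrial folate enzyme that follows Shmt2, was the only gene of the 40 lower in cKO at an unadjusted p of 0.05. It stood at 21.0, 21.9 and 26.5 CPM in WT replicates 1, 2 and 3 and at 15.4, 19.5 and 18.4 CPM in cKO replicates 1, 2 and 3. Every cKO library was below every WT library, and the means were 23.1 ± 2.95 (SD, n = 3) CPM and 17.8 ± 2.15 (SD, n = 3) CPM. The log2 difference was -0.38 ± 0.13 (SE), with a 95% interval of -0.68 to -0.079, an unadjusted p of 0.0196 and an adjusted p of 1.0 by edgeR. Without the library labelled WT replicate 2 the difference was -0.42 (unadjusted p = 0.029 by edgeR). Without WT replicate 3 the difference was -0.27 and without cKO replicate 1 it was -0.28, with unadjusted p-values of 0.080 and 0.067.

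**Figure D3:**
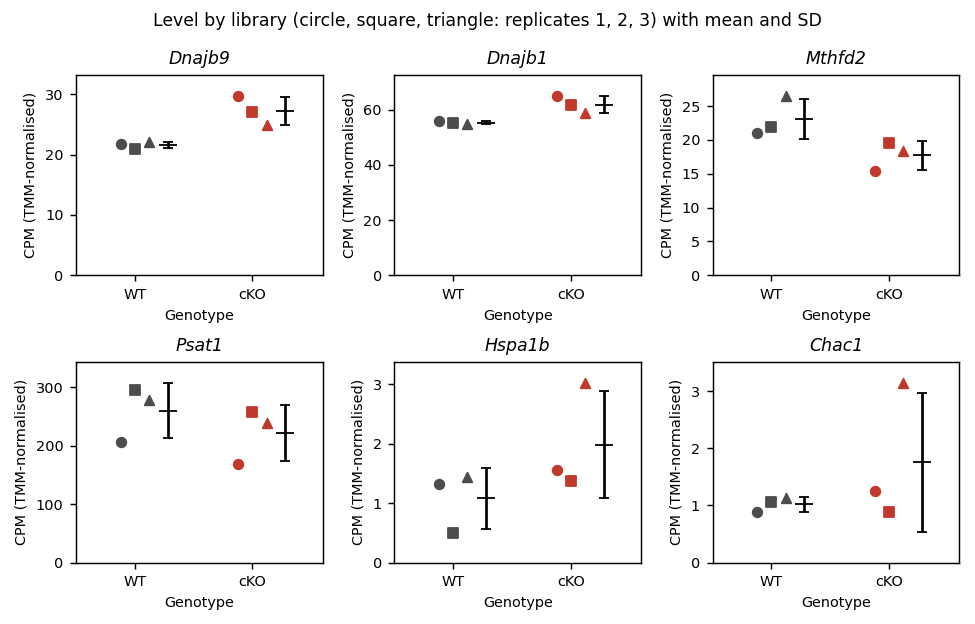
Level of 6 genes in CPM (y axes, from 0) in the WT and cKO libraries (x axes), with circles, squares and triangles for replicates 1, 2 and 3 and bars for the mean and SD of 3 libraries. The cKO libraries lie above the WT libraries for Dnajb9 and Dnajb1 and below them for Mthfd2, overlap with them for Psat1, and include 1 high library, replicate 3, for Hspa1b and Chac1.

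Chac1, Sesn2 and Trib3 were low in all libraries. Chac1 (Entrez 69065), which degrades glutathione, stood at 0.879, 1.05 and 1.13 CPM in WT and 1.25, 0.878 and 3.14 CPM in cKO. Replicate 3 of cKO alone was high, at 52 counts against 14 to 20 in the other libraries, so the log2 difference of 0.78 ± 0.48 (SE) became 0.059 without it. Sesn2, a regulator of mTORC1, ran from 4.34 to 7.96 CPM with its highest value in the same library, and its log2 difference of 0.16 was -0.094 without it. Ddit3 (Chop, Entrez 13198), the transcription factor of the late response, gave 13.1, 9.91 and 13.3 CPM in WT and 14.5, 9.60 and 13 CPM in cKO, so the genotypes overlapped at a log2 difference of 0.030 ± 0.18 (SE). Trib3, a pseudokinase induced by Chop, had 0 to 9 counts and ran from 0 to 0.543 CPM, and the count of 0 in WT replicate 3 allows up to 0.187 CPM. Slc3a2, the heavy chain shared by amino acid exchangers, differed by -0.073 on the log2 scale. The median over the 10 tested was 0.064, and their group's summed level was 800 ± 44.0 TPM in WT and 775 ± 84.0 TPM in cKO (SD, n = 3 each).

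The sensors and regulators had the smallest median SE of the subgroups, 0.078 on the log2 scale. All 9 had a 95% interval within 1.5-fold, against 78.2% of all genes tested. Atf4 (Entrez 11911), regulated mostly through its translation, was the most abundant of the 9 in TPM. It stood at 139, 151 and 143 CPM in WT and 147, 147 and 161 CPM in cKO. The genotypes overlapped, and the log2 difference was 0.073 ± 0.070 (SE) with a 95% interval of -0.089 to 0.23. Xbp1 (Entrez 22433), whose mRNA is spliced by IRE1, gave 58.4, 63.7 and 61.6 CPM in WT and 65.1, 56.0 and 60.2 CPM in cKO, a log2 difference of -0.019 ± 0.078 (SE). The sensors Ern1, Atf6, Eif2ak3 and Eif2ak4 differed by -0.087, 0.038, 0.11 and 0.074 on the log2 scale, and of these the genotypes did not overlap for Eif2ak3, which was higher in cKO by little (44.5 to 46.2 CPM in WT, 46.4 to 54.0 CPM in cKO, unadjusted p = 0.206 by edgeR). The subunits of the eIF2α phosphatase differed by -0.021 (Ppp1r15a, Gadd34) and -0.072 (Ppp1r15b, CReP). Every cKO library of Ppp1r15b was below every WT library, at an unadjusted p of 0.242 by edgeR.

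Most of the chaperones varied in the same direction between the WT libraries. For 19 of the 21 tested (90.5%) the difference of the genotype means was smaller than the WT range, close to the 84.0% of all genes. WT replicate 1 lay below the mean of the 6 libraries for 12 of 12 ER, 7 of 7 cytosolic and 2 of 2 mitochondrial chaperones, while it did so for 5 of 10 Atf4 targets and 5 of 9 sensors and regulators. The same count was not made over all genes. WT replicate 1 was the lowest library for 16 of the 21 chaperones (76.2%), against 21.7% of all genes tested. That 21.7% was the largest such share of the 6 libraries. The library labelled WT replicate 2 was the highest for 13 of the 21 chaperones (61.9%), against 17.7% of all genes. The median deviation of the ER chaperones from the mean of 6 libraries was -0.15, 0.11 and 0.043 in WT replicates 1, 2 and 3 on the log2 scale, and -0.047, 0.002 and 0.038 in the cKO replicates. Beside this, 3 progenitor markers of the cortex list (Pax6, Sox2 and Nes) summed to 766, 1014 and 1013 CPM in WT and 716, 1122 and 887 CPM in cKO, and 5 neuronal markers to 3375, 2719 and 3077 CPM in WT and 3540, 2813 and 2650 CPM in cKO. The progenitor sum was lowest in replicate 1 of both genotypes, mainly through Nes (447, 667 and 652 CPM in WT), while Sox2 was 158, 157 and 172 CPM in WT and Emx1, of the same cortex list, was highest in WT replicate 1 (98.9, 84.7 and 78.8 CPM). Eomes (Tbr2), of the same cortex list and the study's marker of intermediate progenitors, was in neither sum and went the other way. It was highest in replicate 1 of both genotypes, at 622, 494 and 521 CPM in WT and 558, 503 and 424 CPM in cKO. The neuronal sum was highest in replicate 1 of both genotypes, and the part of these markers in the levels of the chaperones was not tested. Replicate 1 was the lowest library within both genotypes for 17 of the 40 genes (42.5%), Psat1, Phgdh, Asns, Mthfd2, Slc7a11, Hspd1 and Hspe1 among them, and for 26.8% of all genes. These library patterns were looked for after the values had been seen, and they have no test.

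**Figure D4:**
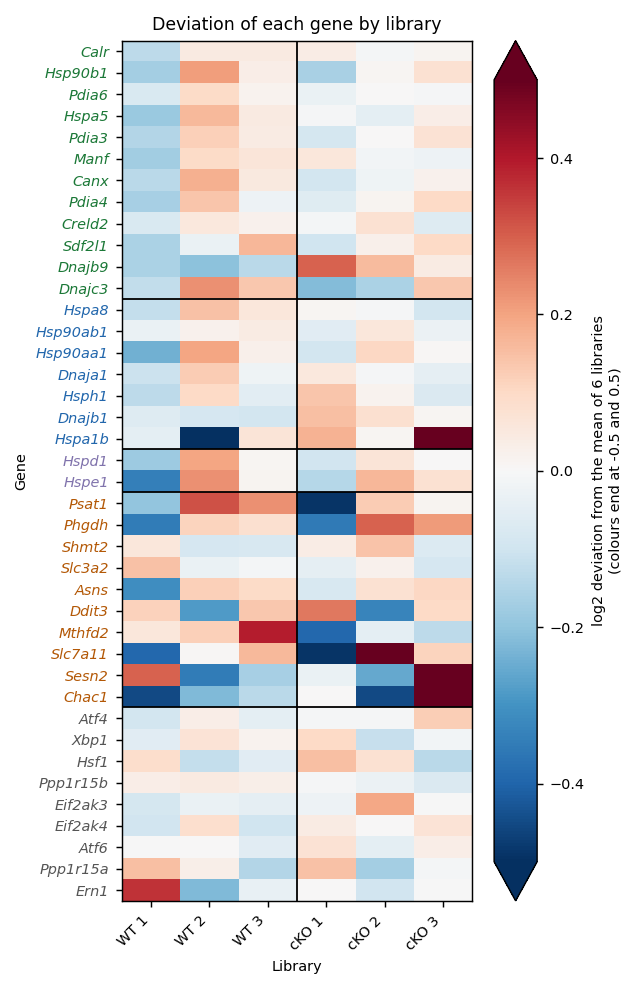
Log2 deviation of each of the 40 genes tested (rows, by subgroup) from its mean over 6 libraries (columns, WT left of the line), with red above and blue below the mean and colours ending at -0.5 and 0.5. The column of WT replicate 1 is blue for the 21 chaperones, and cKO replicate 3 is dark red for Hspa1b, Sesn2 and Chac1.

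**Figure D5:**
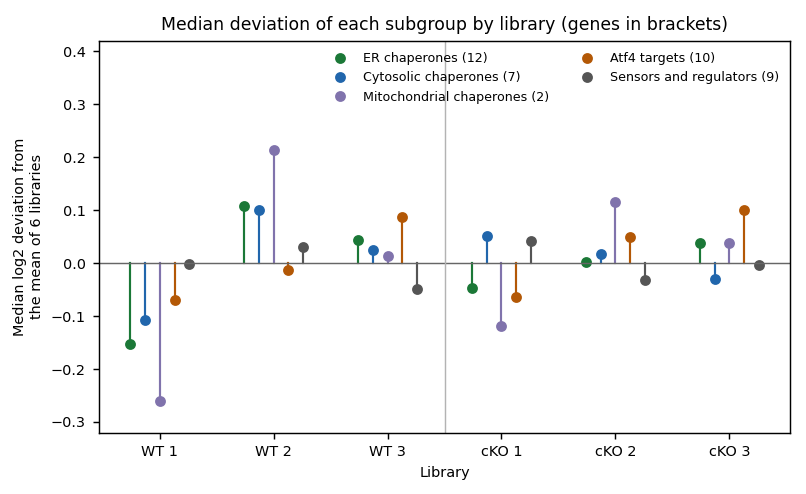
Median log2 deviation from the mean of 6 libraries (y axis) for each subgroup in each library (x axis), with the number of genes in brackets. The 3 chaperone subgroups lie lowest in WT replicate 1 (-0.15, -0.11 and -0.26 for ER, cytosolic and mitochondrial) and highest in the library labelled WT replicate 2, while the sensors and regulators stay between -0.048 and 0.042.

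The further genes of these pathways gave no call. Of 109 other genes listed for ER protein quality control, the integrated stress response and the cytosolic and mitochondrial chaperone systems, 104 were tested, and Atf3, Nupr1, Gdf15, Fgf21 and Hspb1 were below the filter. None passed an adjusted p of 0.05 and none an unadjusted p of 0.05 in edgeR (lowest unadjusted p = 0.0563, Vldlr), where 3.57% of all genes did. The median log2 difference was 0.026, with 66 above 0 and 38 below. Over all genes tested the median was 0.002, with 6774 above 0 and 6566 below. The genotypes did not overlap for 8 of the 104 (6 higher and 2 lower in cKO), against 9.04% of all genes. The 95% interval lay within 1.5-fold for 95 of the 104 (91.3%), against 78.2% of all genes. Among the stress chaperones of this list, Hspb1, Bag3 and Cryab were highest in cKO replicate 3, the library with the epidermis and mesenchyme markers: Hspb1 at 10.7 CPM against 0.126 to 0.439 CPM elsewhere, Bag3 at 6.03 against 3.22 to 3.49 CPM, and Cryab at 3.26 against 0.627 to 1.56 CPM. These 3 were named after their values were seen, and the part of that tissue in the values of Hspa1b, Chac1 and Sesn2 was not tested.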

How the data were processed

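Cortical RNA of WT embryos was compared with that of Ybx1 cKO embryos (E13.5), with genotype and replicate number taken from the sample titles. Total RNA was extracted with Trizol and made into mRNA libraries. Per the labels, the submitters' processing notes name HISAT2 2.2.1, Bowtie2 2.4.5, RSEM 1.3.1 and the builds GRCm38 and mm10. The annotation and the use of strand are not given in the sources used here, so counts of overlapping and antisense genes are uncertain. The authors deposited estimated counts per gene, not scaled for depth (10.9% of the values were not whole), and TPM, which the authors scaled for length and to a common sum. The 6 FPKM columns and 6 columns of group averages were not used. The columns named Ctrl were taken as the samples labelled WT.

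Estimated counts were rounded, genes were kept by filterByExpr (minimum count 10, minimum total 15), and genotype was tested with edgeR 4.0.16 (glmQLFit and glmQLFTest, two-sided, TMM factors 0.987 to 1.03, R 4.3.3) over all 13340 genes, with Benjamini-Hochberg adjustment at 0.05. The fit had a common dispersion of 0.0169 and 3.92 prior degrees of freedom. Library totals of 15907486 to 16282921 counts make 3 counts equal to 0.181 to 0.188 CPM, which covers counting error only. SE is the log2 difference divided by the root of F, and 95% intervals use the t quantile. These intervals and the 1.5-fold bound were chosen after the data were examined. With 3 libraries against 3, an exact permutation test of 1 gene could not go below 0.1, so none was used. The fit was also run on simulated data with known changes, drawn from the means and dispersions of these data. No simulated library had a doubtful label or other tissue mixed in, and no statement here rests on the outcome. Promoters came from RefSeq windows of GRCm38.p6, and shared 50-base windows from GENCODE M21 transcripts.

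The 42 genes, the further pathway lists and the markers were chosen with earlier results of these data known. Values per library are given for genes with an unadjusted p under 0.05, the 3 genes of each subgroup with the highest mean TPM, the 3 with the largest log2 difference, and Xbp1, Atf4, Ddit3 and Hsf1. Further pathway genes were to be named at an unadjusted p under 0.05. Promoters were to be printed for at most 3 genes per motif with the highest mean TPM, and Hspa5 was added. The progenitor and neuronal parts of the cortex list were split after the values were seen. Alternatives were RLE factors, library totals only, a minimum of 10 counts in each library, DESeq2 1.42.0, no filter, limma-voom and limma on log2(TPM + 1) (limma 3.58.1), the replicate number as a block, and libraries left out.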

Additional observations from a re-analysis of the deposited data

How the results depend on the processing

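Adjusted calls among the 40 genes were 0 in each of the 15 alternatives. Over all genes tested they were 4 with DESeq2, 2 with the replicate block and 2 without WT replicate 2. They were 2 without both WT replicate 2 and cKO replicate 3, and 0 in the rest. Dnajb9 kept an unadjusted p under 0.05 in all 15 alternatives (log2 difference 0.28 to 0.39). The number of genes higher in cKO at an unadjusted p of 0.05 was 1 with no filter, with DESeq2, with TPM and without both WT replicate 2 and cKO replicate 3, and 1 to 2 when each library was left out in turn. The number lower was 0 to 1 when each library was left out, falling to 0 without WT replicate 3 or without cKO replicate 1. The median of the cytosolic chaperones was 0.092 without both WT replicate 2 and cKO replicate 3. It was -0.036 to 0.11 when each library was left out, the highest being without WT replicate 2. Ybx1 passed an adjusted p of 0.05 with DESeq2 (-3.00, adjusted p = 5.46e-10), with the replicate block (-2.95, adjusted p = 0.0381), without WT replicate 2 (-3.28, adjusted p = 0.0206) and without both libraries (-3.49, adjusted p = 0.0188), and ranged from -3.28 to -2.75 when each was left out. With the replicate block, 2 genes were lower (Mthfd2 and Psat1) and 3 higher (Dnajb9, Dnajb1 and Hspa1b) at an unadjusted p of 0.05, or 12.5% against 8.17% of all genes, and the lowest adjusted p was 0.481 (Psat1, -0.23, unadjusted p = 0.0026), with Hspa1b at an unadjusted p of 0.026. Same-numbered libraries correlated in their deviations at 0.406, 0.310 and -0.0200 over all genes and at 0.450, 0.480 and 0.480 over the 40 genes, 2 of 3 WT and 2 of 3 cKO libraries correlated best with their own number, and the numbers were not treated as pairs because 1 all-gene value is under 0.1. Small differences changed sign. With library totals only, Hsp90ab1 was 0.0044 and Xbp1 0.0061. Hsp90aa1 was -0.0016 with no filter and Ddit3 -0.091 with TPM. Without both libraries, Ddit3 was -0.13, Hspa8 0.031, Hspd1 0.068, Pdia6 0.014 and Xbp1 0.013. With each library left out, Calr ranged from -0.026 to 0.055, Ddit3 from -0.096 to 0.18, Hsp90aa1 from -0.10 to 0.11, Hsp90ab1 from -0.055 to 0.011, Hsp90b1 from -0.14 to 0.042, Hspd1 from -0.11 to 0.073, Hspe1 from -0.084 to 0.19, Pdia6 from -0.064 to 0.017, Phgdh from -0.012 to 0.30 and Xbp1 from -0.067 to 0.032. The cause of these shifts was not tested. A minimum of 10 counts in every library left Hspa1b out of the test. Hspa1b and Chac1, with 8 to 52 counts a library, had 95% intervals that reach beyond 1.5-fold, as Psat1 did with 2700 to 4770 counts, and depth was not separated from the spread between libraries.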
